A study of Mus musculus with 8 samples.

Results

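The EGF receptor family and its ligands were represented here by 10 genes: the ligands Epgn, Ereg, Areg, Hbegf, Tgfa and Btc, the receptors Egfr, Erbb2 and Erbb3, and Lrig1, a membrane protein that restrains these receptors. The list of genes was drawn up with earlier results of these data known, and within it every probe set carrying 1 of these symbols was taken, which gave 21 of the 22690 probe sets of the array table and 10 of the 13201 genes that it names. Epidermal RNA had been hybridized to Affymetrix mouse arrays to learn how loss of Tcl1 and its return to basal keratinocytes (KCs) alter gene expression. The 8 arrays fell into 3 genotypes: 3 from K14-TCL1 mice, 3 from Tcl1-/- mice and 2 from wild type (WT) C57bl/6 mice. K14-TCL1 mice lacked the endogenous gene too, being Tcl1-/- animals with a human TCL1A transgene under the keratin 14 promoter, which is active in basal KCs. All mice had been depilated, and skin was taken 3 days later. The epidermal sheet was lifted off the dermis with dispase. The ages and the litters of the mice are not given in the sources used here.

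EGF receptor ligands are made as membrane-bound precursors, are released by metalloproteinases, and act on the cell that made them or on its neighbours. Ligand binding pairs receptor chains, with Erbb2 as the favoured partner and with signals passing to RAS, ERK, PI3K and STAT proteins. In epidermis this pathway is known for keeping basal KCs dividing and migrating, and in the mouse its loss disturbs the hair coat and the hair cycle.

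The intensities given are RMA values on the linear scale, each for 1 probe set on 1 array, and differences are on the log2 scale. Levels of different probe sets cannot be set against each other, so comparisons run between genotypes within a probe set. Each gene is represented by its brightest probe set (by the mean of all arrays) unless another is named. The medians of the 8 arrays lay between 6.52 and 6.55 (log2), and the correlation of log2 intensities over all probe sets was 0.998 to 0.999 within a genotype and 0.995 to 0.996 between genotypes. The KC keratins Krt5, Krt14, Krt1 and Krt10 read between 14614 and 18882 on every array, near the top of the scale. The dermal marker Col1a1 read 12.6 to 16.2 and the endothelial marker Pecam1 14.3 to 19.8, both under the level of 32 (5 on the log2 scale) that a genotype mean had to reach for testing. The Tcl1 probe set read 30.6 to 35.8 in K14-TCL1, 32.1 to 33.3 in Tcl1-/- and 29.8 to 31.1 in WT, at the floor in all, so it neither tells the genotypes apart nor checks the labels. In whole epidermis, fewer cells of a type and less RNA in each cell cannot be told apart.

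Several of the ligands share a stretch of genome. In the RefSeq annotation (GRCm38.p6) Epgn, Ereg, Areg and Btc follow each other on chromosome 5 with no other protein-coding gene between them. Since Epgn, Ereg and Areg were all lowest in Tcl1-/- epidermis and Btc was not, promoters were read for motifs. RefSeq entries were matched for 7 of the 10 genes (all but Ereg, Hbegf and Erbb3), and the promoters of Epgn and Areg are shown because they alone of the 7 held any of the 3 motifs searched. The motifs were TATAAA, TGACGTCA (the cAMP response element) and TGANTCA (an AP-1 site), read on both strands in the 250 bases before the RefSeq start. No 2 matches overlapped. Capitals mark the matches.
Epgn promoter, chr5:91027267-91027516, plus strand: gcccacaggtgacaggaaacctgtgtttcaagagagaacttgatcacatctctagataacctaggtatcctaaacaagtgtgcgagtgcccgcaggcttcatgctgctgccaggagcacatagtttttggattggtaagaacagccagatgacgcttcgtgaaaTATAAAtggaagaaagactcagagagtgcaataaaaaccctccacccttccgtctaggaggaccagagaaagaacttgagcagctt
Areg promoter, chr5:91139349-91139598, plus strand: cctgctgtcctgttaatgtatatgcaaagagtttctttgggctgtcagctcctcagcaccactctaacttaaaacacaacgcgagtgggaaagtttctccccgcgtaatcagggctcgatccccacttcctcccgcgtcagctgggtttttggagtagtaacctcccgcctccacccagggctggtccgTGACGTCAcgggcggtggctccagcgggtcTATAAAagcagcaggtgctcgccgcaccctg
The Epgn sequence held TATAAA 86 bases before the start. The Areg sequence held TATAAA 31 bases and TGACGTCA 61 bases before it. TGANTCA was in none of the 7. Over 32851 mouse promoters of this length, 12.4% held TATAAA, 1.55% TGACGTCA and 6.75% TGANTCA. These matches are letters in a window and say nothing about which factor binds there.

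Epgn encodes epigen, a ligand of Egfr, and showed the largest differences of the 10 genes between Tcl1-/- epidermis and either other genotype. Its probe set read 388, 398 and 386 in K14-TCL1, 165, 156 and 159.9 in Tcl1-/-, and 557 and 577 in WT. The genotypes lay far apart, with K14-TCL1 between the others and no overlap anywhere. Epgn was 2.44-fold higher in K14-TCL1 than in Tcl1-/- epidermis, a log2 difference of 1.29 ± 0.036 (SE, limma adjusted p = 1.15e-07). It was 3.54-fold lower in Tcl1-/- than in WT, by -1.82 ± 0.040 on the log2 scale (adjusted p = 4.18e-08), the difference of rank 15 by size among 9731 genes. K14-TCL1 arrays stayed below the WT level, with a log2 difference of -0.54 ± 0.040 (adjusted p = 7.15e-05).

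Ereg encodes epiregulin, which activates Egfr and Erbb4. It read 1683, 1773 and 1604 in K14-TCL1, 1168, 1108 and 1148 in Tcl1-/-, and 2473 and 2600.5 in WT. The order of the genotypes was that of Epgn, again with K14-TCL1 in the middle and without overlap. Ereg was 1.48-fold higher in K14-TCL1 than in Tcl1-/- (log2 difference 0.56 ± 0.046 SE, adjusted p = 1.12e-04) and 2.22-fold lower in Tcl1-/- than in WT (-1.15 ± 0.051, adjusted p = 2.30e-06). It also fell in K14-TCL1 relative to WT, by -0.59 ± 0.051 (adjusted p = 1.55e-04).

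Areg encodes amphiregulin, a ligand that KCs use on themselves and that binds heparan sulfate. It read 92.5, 87.2 and 71.3 in K14-TCL1, 43.9, 47.1 and 46.8 in Tcl1-/-, and 72.0 and 65.2 in WT. Every Tcl1-/- array was below every other array, while 1 K14-TCL1 array lay within the WT range. Areg was 1.81-fold higher in K14-TCL1 than in Tcl1-/- (log2 difference 0.86 ± 0.091 SE, adjusted p = 4.74e-04) and 1.49-fold lower in Tcl1-/- than in WT (-0.58 ± 0.102, adjusted p = 0.00422). Between K14-TCL1 and WT the difference of 0.28 ± 0.102 did not pass the test (adjusted p = 0.0878), but it was 0.39 with an adjusted p of 0.00804 without replicate 3 of K14-TCL1, the lowest array of that genotype.

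Hbegf encodes a heparin-binding ligand that is made quickly in wounded epidermis. It read 294, 290.5 and 289 in K14-TCL1, 221, 213 and 233 in Tcl1-/-, and 284 and 276 in WT. The K14-TCL1 and WT arrays lay close together and above all Tcl1-/- arrays. Hbegf was 1.31-fold higher in K14-TCL1 than in Tcl1-/- (log2 difference 0.39 ± 0.040 SE, adjusted p = 3.88e-04) and 1.26-fold lower in Tcl1-/- than in WT (-0.33 ± 0.045, adjusted p = 0.00106). The difference between K14-TCL1 and WT was 0.06, with a 95% interval of -0.05 to 0.16 (adjusted p = 0.414). The other Hbegf probe set gave the same calls, with log2 differences of 0.26 ± 0.061, -0.29 ± 0.068 and -0.03 ± 0.068 in these comparisons (adjusted p = 0.0182, 0.0182 and 0.802 over all probe sets).

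Tgfa encodes transforming growth factor alpha, an autocrine ligand of KCs whose loss gives mice a wavy coat. It read 229, 237 and 237 in K14-TCL1, 230.0, 214 and 223 in Tcl1-/-, and 227 and 236 in WT, with the genotypes overlapping. The 95% intervals of its log2 differences were -0.01 to 0.17 for K14-TCL1 against Tcl1-/-, -0.16 to 0.04 for Tcl1-/- against WT, and -0.08 to 0.12 for K14-TCL1 against WT (adjusted p = 0.184, 0.352 and 0.813). Neither of its other 2 probe sets, which read 48.4 to 67.2, passed the test in any comparison.

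Btc encodes betacellulin, which binds Egfr and Erbb4, and did not follow its neighbours Epgn, Ereg and Areg. It read 432, 431 and 425 in K14-TCL1, 371, 404 and 421 in Tcl1-/-, and 364 and 369 in WT. The K14-TCL1 arrays were the highest and the WT arrays the lowest, with the Tcl1-/- arrays spread between them. The call was for K14-TCL1 against WT, where Btc was 1.17-fold higher (log2 difference 0.23 ± 0.053 SE, adjusted p = 0.0174). It was lost without WT replicate 1 (0.22, adjusted p = 0.101) and without WT replicate 2 (0.24, adjusted p = 0.0778). The differences of 0.11 ± 0.047 between K14-TCL1 and Tcl1-/- and of 0.12 ± 0.053 between Tcl1-/- and WT did not pass (adjusted p = 0.129 and 0.131), and without Tcl1-/- replicate 1 the second was 0.17 and passed (adjusted p = 0.0287). The second Btc probe set passed in no comparison.

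**Figure D1:**
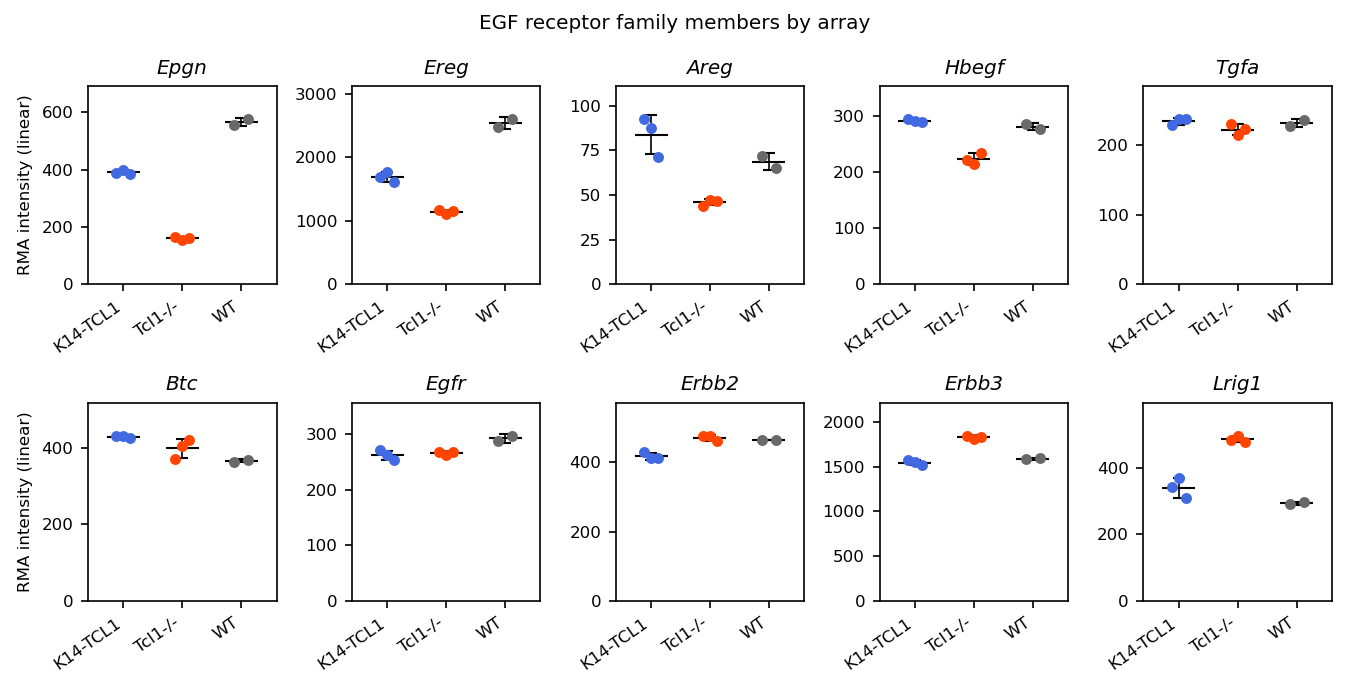
RMA intensity (linear axis from 0) of the probe set that stands for each of the 10 genes, with 1 point for each array, for 3 K14-TCL1, 3 Tcl1-/- and 2 WT mice. Horizontal bars are means and whiskers 1 SD. Epgn, Ereg, Areg and Hbegf are lowest in Tcl1-/-, whereas Erbb3 and Lrig1 are highest there.

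Egfr encodes the receptor that all 6 of these ligands bind. It read 271, 262 and 254 in K14-TCL1, 267, 262 and 268 in Tcl1-/-, and 287 and 298 in WT. The WT arrays were slightly above all others, and K14-TCL1 and Tcl1-/- overlapped. Egfr was 1.12-fold lower in K14-TCL1 than in WT (log2 difference -0.16 ± 0.041 SE, adjusted p = 0.0272) and 1.10-fold lower in Tcl1-/- than in WT (-0.14 ± 0.041, adjusted p = 0.0386). The log2 difference between K14-TCL1 and Tcl1-/- was -0.02, with an interval of -0.10 to 0.06.

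The calls on Egfr depended on single arrays. The call in Tcl1-/- was lost when any 1 Tcl1-/- or WT array was left out (adjusted p between 0.0713 and 0.210), and the call in K14-TCL1 without K14-TCL1 replicate 3 (0.0705), WT replicate 1 (0.0752) or WT replicate 2 (0.166). The probe sets of Egfr disagreed too. A second bright one read 249 to 251 in K14-TCL1, 242 to 248 in Tcl1-/- and 242 to 256 in WT and passed in no comparison. A dimmer one read 51.3 to 58.7 in K14-TCL1, 48.1 to 48.5 in Tcl1-/- and 49.5 to 49.8 in WT, and was called higher in K14-TCL1 than in Tcl1-/- (0.18 ± 0.050, adjusted p = 0.0322 over all probe sets). The remaining 2 passed in none.

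Erbb2 encodes the partner receptor for which no ligand is known. It read 429.6, 413 and 412 in K14-TCL1, 478, 476 and 462 in Tcl1-/-, and 464 and 464 in WT. The K14-TCL1 arrays were the lowest, and the WT arrays lay within the Tcl1-/- range. Erbb2 was 1.13-fold lower in K14-TCL1 than in Tcl1-/- (log2 difference -0.17 ± 0.033 SE, adjusted p = 0.00691) and 1.11-fold lower in K14-TCL1 than in WT (-0.15 ± 0.037, adjusted p = 0.0243). The second of these calls was lost without K14-TCL1 replicate 3 (adjusted p = 0.0637), WT replicate 1 (0.116) or WT replicate 2 (0.111, differences of -0.14, -0.15 and -0.15). Between Tcl1-/- and WT the difference was 0.03, with an interval of -0.06 to 0.11.

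Erbb3 encodes a neuregulin receptor with little kinase activity of its own, which signals through its partners. It read 1572, 1552 and 1518 in K14-TCL1, 1850.0, 1806 and 1839 in Tcl1-/-, and 1584 and 1599 in WT. All Tcl1-/- arrays stood above the other genotypes, the reverse of the 4 ligands that were lowest there. Erbb3 was 1.18-fold lower in K14-TCL1 than in Tcl1-/- (log2 difference -0.24 ± 0.031 SE, adjusted p = 0.00114) and 1.15-fold higher in Tcl1-/- than in WT (0.20 ± 0.035, adjusted p = 0.00385). Between K14-TCL1 and WT it differed by -0.04, with an interval of -0.12 to 0.04 (adjusted p = 0.441). The other Erbb3 probe set read 24.9 to 30.8 over all arrays, too dim to be tested. With the mean of both probe sets, the calls were lost, at -0.13 for K14-TCL1 against Tcl1-/- and 0.10 for Tcl1-/- against WT (adjusted p = 0.0583 and 0.160).

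Lrig1 encodes a transmembrane protein that binds EGF receptor family members and hastens their degradation, and in mouse skin it marks stem cells of the upper hair follicle. It read 342, 369.6 and 309 in K14-TCL1, 484, 497 and 478 in Tcl1-/-, and 289.5 and 295 in WT. The Tcl1-/- arrays were far above the rest, and the K14-TCL1 arrays were also all above WT. Lrig1 was 1.43-fold lower in K14-TCL1 than in Tcl1-/- (log2 difference -0.52 ± 0.060 SE, adjusted p = 7.23e-04) and 1.66-fold higher in Tcl1-/- than in WT (0.73 ± 0.068, adjusted p = 1.34e-04). Its difference of 0.21 ± 0.068 between K14-TCL1 and WT did not pass (adjusted p = 0.0550), but passed without K14-TCL1 replicate 3 (0.28, adjusted p = 0.0108). It also passed with a floor of 6 (log2), cyclic loess scaling, a pseudocount of 16, a prior following intensity or a replicate block.

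The second bright Lrig1 probe set repeated this order, with 255, 269.8 and 259 in K14-TCL1, 363, 338 and 335 in Tcl1-/-, and 219 and 222 in WT. It passed the test in all 3 comparisons, at -0.40 ± 0.044 for K14-TCL1 against Tcl1-/-, 0.65 ± 0.049 for Tcl1-/- against WT and 0.24 ± 0.049 for K14-TCL1 against WT (adjusted p = 7.34e-04, 6.93e-05 and 0.0129 over all probe sets). The remaining Lrig1 probe set, near the floor at 27.7 to 36.0, passed in none.

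**Figure D2:**
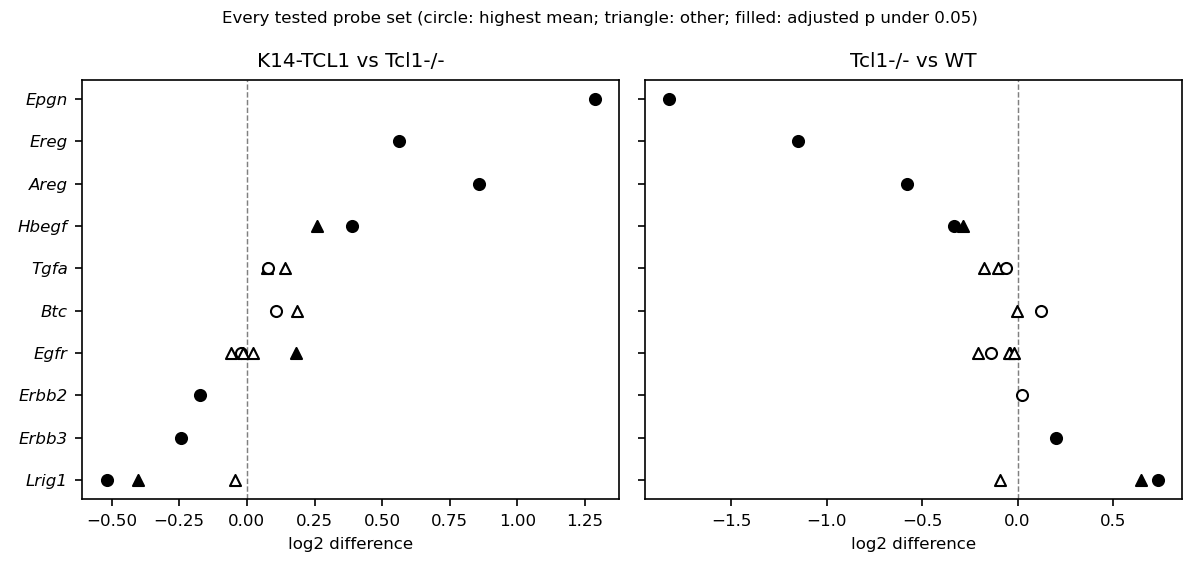
Log2 difference of each of the 20 tested probe sets, for K14-TCL1 against Tcl1-/- (left) and Tcl1-/- against WT (right). Circles are the probe sets that stand for a gene, triangles the others, and filled symbols have an adjusted p under 0.05 over all probe sets. Both Hbegf and both bright Lrig1 probe sets lie on the same side, while of the Egfr probe sets only a dim one is called on the left.

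Counted over the set, 7 of the 10 genes passed the test between K14-TCL1 and Tcl1-/-, against 26.6% of the 9731 tested genes. Epgn, Ereg, Areg and Hbegf were higher in K14-TCL1 (12.7% of all genes were), and Erbb2, Erbb3 and Lrig1 were lower (13.9% of all genes). Between Tcl1-/- and WT, 7 of 10 passed as well, against 26.6% of all genes. Here Erbb3 and Lrig1 were higher in Tcl1-/- (14.4% of all genes), and Epgn, Ereg, Areg, Hbegf and Egfr were lower (12.2%). Between K14-TCL1 and WT 5 passed, against 21.5% of all genes, with Btc higher (11.7%) and Epgn, Ereg, Egfr and Erbb2 lower (9.84%).

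The arrays of the 2 genotypes did not overlap for 8 of the 10 genes in each of the comparisons, against 42.7% of all genes for K14-TCL1 and Tcl1-/-, 57.7% for Tcl1-/- and WT, and 50.6% for K14-TCL1 and WT. Called differences beyond 1.4-fold were found in 4, 4 and 2 of the 10 genes in these comparisons, against 1.97%, 4.05% and 2.74% of all genes. The median size of the log2 difference, whatever its sign, was 0.32, 0.27 and 0.19 over the 10 genes and 0.088, 0.097 and 0.092 over all tested genes. With the sign kept, the medians over the 10 genes were 0.09, -0.10 and -0.01. Each genotype enters 2 of the comparisons, so they share arrays and are not independent of each other.

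**Figure D3:**
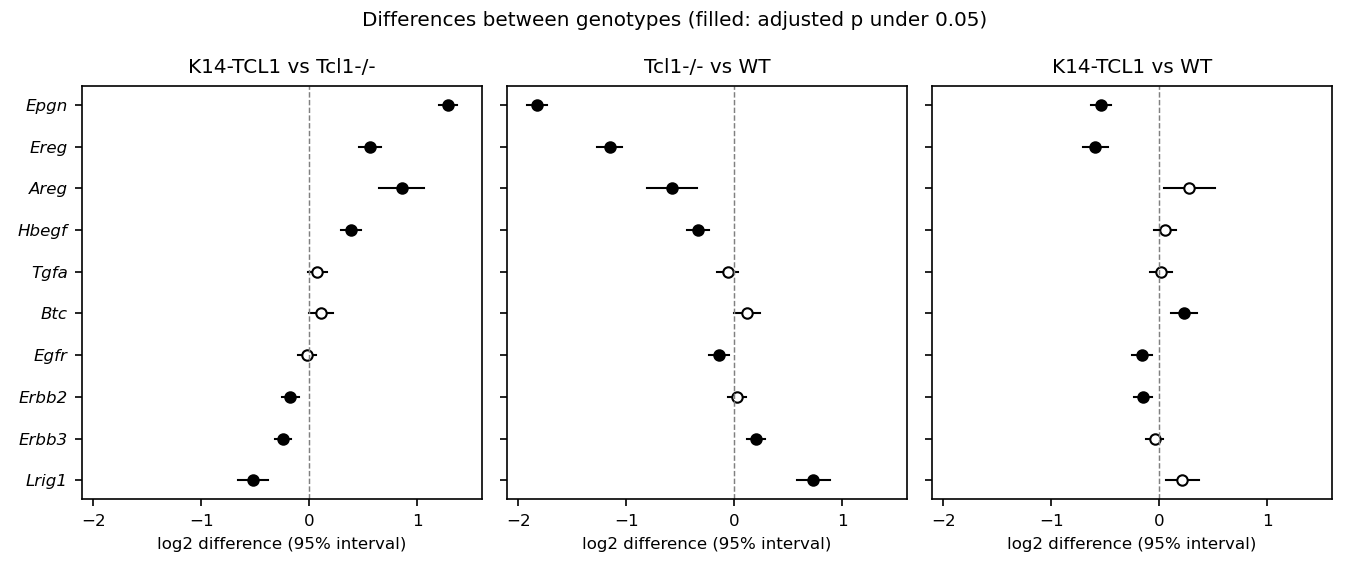
Log2 difference with its 95% interval for the 10 genes in the comparisons K14-TCL1 against Tcl1-/-, Tcl1-/- against WT and K14-TCL1 against WT. Filled points have a limma adjusted p under 0.05. Epgn, Ereg, Areg and Hbegf lie right of 0 on the left and left of 0 in the middle, and in the right panel only Btc is called higher.

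Markers of other cell types of the sheet moved along with some of these genes, and the part of those cell types in the results was not tested. The summed intensity of 5 upper follicle markers was 17217 to 18061 in K14-TCL1, 20195 to 20962 in Tcl1-/- and 15886 to 16120 in WT, the same order as Lrig1. Of those 5 genes, 1 was called higher and 2 lower in K14-TCL1 than in Tcl1-/-, whereas Tcl1-/- against WT gave 3 higher and 1 lower. The 4 measured sebaceous gland markers summed to 1117 to 1185, 1349 to 1383 and 1041 to 1069 in K14-TCL1, Tcl1-/- and WT, with Mc5r under the floor. The 5 Langerhans cell markers summed to 7459 to 7510, 8869 to 9260 and 6872 to 7101 in the same genotypes. The sum of 5 epidermal T cell markers was lowest in Tcl1-/-. It was 1830 to 1888 in K14-TCL1, 1637 to 1684 in Tcl1-/- and 1869 to 1872 in WT. Of the 5 genes, 4 were called higher and none lower in K14-TCL1 than in Tcl1-/-. For Tcl1-/- against WT, 2 were called higher (Cd3g by 0.32 and Cd3e by 0.22) and 1 lower. The lower gene was Thy1 (-0.42), which weighs most in the sum, so the sum and most called genes went opposite ways there. Basal KC markers (6 genes) summed to 40919 to 41304 in K14-TCL1, 40871 to 41364 in Tcl1-/- and 44451 to 44898 in WT. Suprabasal KC markers (4 genes) summed to 53198 to 53974, 56513 to 56948 and 56885 to 57224 in the same genotypes. Granular KC markers (4 genes) summed to 27416 to 27694 in K14-TCL1, 32100 to 32689 in Tcl1-/- and 30282 to 30876 in WT. Of these granular genes, 4 were called lower in K14-TCL1 than in Tcl1-/-. For Tcl1-/- against WT, 2 were called higher and 1 lower (Ivl, -0.43), and 1 did not pass. The 7 markers of outer root sheath and bulge, with Cd34 under the floor, summed to 13321 to 13601 in K14-TCL1, 12667 to 12965 in Tcl1-/- and 11148 to 11161 in WT. Of the 6 tested, 4 were called higher and 1 lower (Krt17, -0.19) in Tcl1-/- than in WT. Melanocyte markers (3 of 5 under the floor) summed to 193 to 207, 181 to 198 and 162 to 168 in these genotypes. Neutrophil and macrophage markers (1 of 5 under the floor) summed to 1264 to 1348, 1498 to 1557 and 1171 to 1225. Of the 4 tested, 3 were called above WT in Tcl1-/-, among them Csf1r (0.51), which weighs most in that sum. Cxcr2 went the other way (-0.32, limma adjusted p = 0.0268). In K14-TCL1, 2 were called above WT and Cxcr2 below it (-0.39, limma adjusted p = 0.0139). Most fibroblast, endothelial and muscle markers lay under the floor (4 of 6, 3 of 4 and 3 of 4), with sums no higher than 137, 94.2 and 119 on any array.

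Of the remaining ligands and receptor of the family, those measured were dim. Of Egf, Nrg1, Nrg2, Nrg3, Nrg4 and Erbb4, 4 were named in the table and none reached the floor. Nrg4, a neuregulin, had a mean log2 intensity of 4.62 in K14-TCL1, 4.54 in Tcl1-/- and 4.52 in WT. Erbb4, the receptor of betacellulin and the neuregulins, read 2.86 in K14-TCL1, 2.90 in Tcl1-/- and 2.87 in WT on the same scale.

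Of 8 tested genes that bear on release of the ligands, 0 rose and 3 fell in K14-TCL1 relative to Tcl1-/- with a median log2 difference of -0.09, against a median of -5.57e-05 over all tested genes, of which 12.7% rose and 13.9% fell. In Tcl1-/- relative to WT 1 rose and 1 fell with a median of -0.05, and in K14-TCL1 relative to WT 1 rose and 3 fell with a median of -0.10, against 0.01 over all genes in both. Over all genes, 14.4% rose and 12.2% fell in Tcl1-/- relative to WT, and 11.7% rose and 9.84% fell in K14-TCL1 relative to WT. Adam17, a sheddase of several of these ligands, fell by 0.15 ± 0.046 in Tcl1-/- relative to WT (adjusted p = 0.0416) and by 0.16 ± 0.046 in K14-TCL1 relative to WT (adjusted p = 0.0400). Timp3, an inhibitor of Adam17, exceeded its WT level in Tcl1-/- by 0.58 ± 0.087 (adjusted p = 0.00195) and in K14-TCL1 by 0.33 ± 0.087 (adjusted p = 0.0308), and was lower in K14-TCL1 than in Tcl1-/- by -0.25 ± 0.078 (adjusted p = 0.0452). Rhbdf1, a partner that helps Adam17 mature, was lower in K14-TCL1 than in Tcl1-/- and than in WT, by -0.17 in each (adjusted p = 0.00730 and 0.0139).

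Among 14 tested genes that restrain the receptors or take them down, 11 did not pass in K14-TCL1 against Tcl1-/- and 13 did not pass in Tcl1-/- against WT, with medians of -0.06 and 0.01. In K14-TCL1 against WT 13 did not pass either (median -0.02). Over all tested genes, 26.6%, 26.6% and 21.5% passed in these comparisons. Ptprk, a receptor phosphatase that removes phosphate from the EGF receptor in human KCs, passed in every comparison. Ptprk exceeded its WT level in Tcl1-/- by 0.95 ± 0.078 (adjusted p = 7.00e-05) and was lower in K14-TCL1 than in Tcl1-/- by -0.50 ± 0.070 (adjusted p = 0.00160), the directions that Lrig1 had. K14-TCL1 stood above WT by 0.45 ± 0.078 (adjusted p = 0.00557). The phosphatase gene Ptpn2 rose by 0.23 and Errfi1, an intracellular inhibitor of the receptor kinase, fell by 0.13 in K14-TCL1 relative to Tcl1-/- (adjusted p = 0.0144 and 0.0498).

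Of 26 tested adaptors and proximal effectors, 3 rose and 7 fell in K14-TCL1 relative to Tcl1-/- (median -0.06), and 6 rose and 3 fell in Tcl1-/- relative to WT (median 0.05), where 26.6% of all tested genes passed in each comparison. In K14-TCL1 relative to Tcl1-/- the falls with the smallest p were those of the RAS exchange factor Sos1 (-0.35 ± 0.051, adjusted p = 0.00212), the scaffold Gab2 (-0.22 ± 0.036, adjusted p = 0.00385) and the adaptors Nck1 and Nck2 (-0.22 and -0.24). In Tcl1-/- relative to WT the transcription factor Stat3 fell by 0.26 (adjusted p = 0.00344), whereas Nck1 and Grb7, an adaptor encoded beside Erbb2, rose by 0.26 and 0.18. In K14-TCL1 relative to WT 2 rose and 4 fell (median -0.06), where 21.5% of all genes passed. The PI3K subunits Pik3ca and Pik3r1 were the genes that rose, by 0.29 and 0.36 (adjusted p = 0.00881 and 0.0128).

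Genes known to rise when the receptor signals did not move as a block. Of 20 tested, 8 rose and 5 fell in K14-TCL1 relative to Tcl1-/-, and 3 rose and 8 fell in Tcl1-/- relative to WT. Over all tested genes, 12.7% rose and 13.9% fell in the first of these comparisons, and 14.4% rose and 12.2% fell in the second. Ereg, Hbegf, Areg and Tgfa belong to both sets. Without them, 5 of 16 rose and 5 fell in K14-TCL1 relative to Tcl1-/- (median 0.08), 3 rose and 5 fell in Tcl1-/- relative to WT (median 0.02), and 3 rose and 3 fell in K14-TCL1 relative to WT (median -0.07, with 11.7% higher and 9.84% lower over all genes).

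Individual genes of that list went opposite ways. Dusp6, the phosphatase that ERK induces against itself, was lower in Tcl1-/- than in WT by -0.71 ± 0.042 (adjusted p = 1.28e-05) and higher in K14-TCL1 than in Tcl1-/- by 0.39 ± 0.037 (adjusted p = 2.63e-04). Fosl1, an AP-1 subunit, lay below the WT level in Tcl1-/- by -0.86 ± 0.051 and in K14-TCL1 by -0.57 ± 0.051. Egr1, an immediate early transcription factor, had the reverse order, being 2.02-fold higher in Tcl1-/- than in WT (1.01 ± 0.042, adjusted p = 1.57e-06) and lower in K14-TCL1 than in Tcl1-/- by -0.49 ± 0.038.

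**Figure D4:**
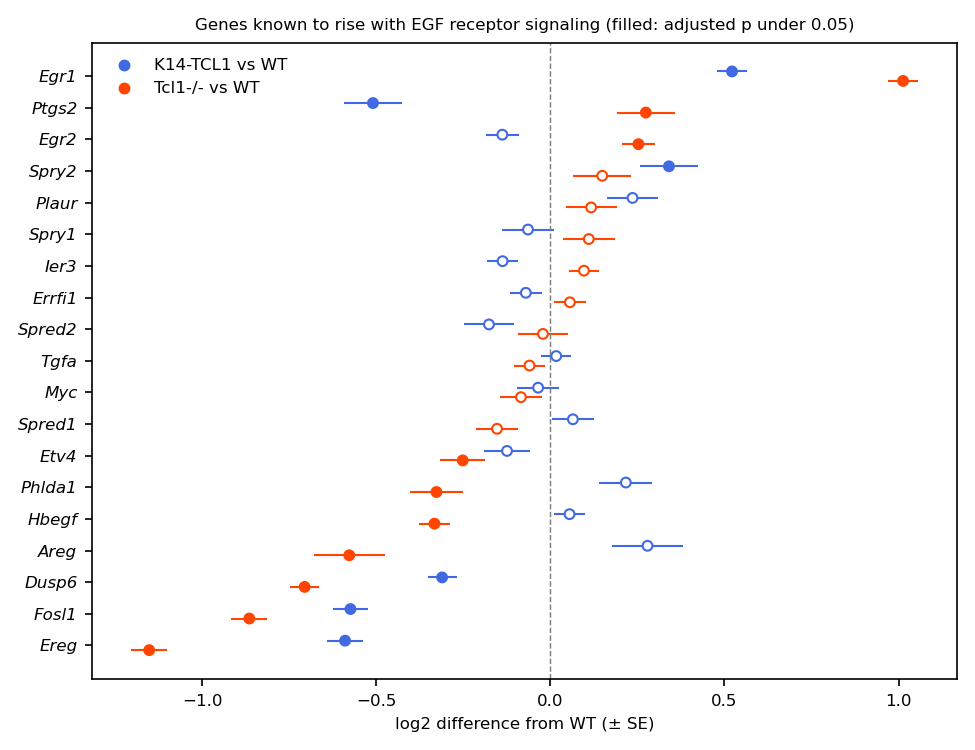
Log2 difference from WT, with its SE, of tested genes known to rise with EGF receptor signaling, for K14-TCL1 and Tcl1-/-. Genes are ordered by the Tcl1-/- value, and filled points have a limma adjusted p under 0.05. Ereg, Fosl1 and Dusp6 are below 0 in both genotypes and Egr1 above 0 in both.

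Over the 8 arrays, the genes whose log2 intensities ran closest to Epgn were Klk6, a secreted protease (Pearson r = 0.999), Mcm6, a subunit of the replicative helicase (0.998), the actin-bundling gene Fscn1 (0.995), the protease inhibitor Stfa3 (0.994) and the matrix gene Fbln1 (0.994). Among the receptors Erbb3 had the largest F statistic over the genotypes, and closest to it were BC094435 (0.997), the transcription factor gene Cebpa (0.993), Smap2 (0.993), Adgra3 (0.991) and Gnb2 (0.991). The 8 points share 3 genotypes, and the values are a description.

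Genes next to the members had differences of their own. On the far side of Btc from the ligand cluster, Parm1 was higher in K14-TCL1 than in Tcl1-/- by 0.24 ± 0.060 (adjusted p = 0.0194) and than in WT by 0.35 (adjusted p = 0.00815), and differed by 0.11 between Tcl1-/- and WT (adjusted p = 0.276). Rchy1, the next gene, passed in none of the comparisons. On the other side, Cxcl2 lay under the floor and Mthfd2l is not named in the array table. Beside Lrig1, Magi1, Slc25a26 and Suclg2 passed neither in K14-TCL1 against Tcl1-/- nor in Tcl1-/- against WT. Beside Hbegf, Ankhd1 was called in the directions of Hbegf (0.19 in K14-TCL1 against Tcl1-/-, -0.17 in Tcl1-/- against WT). Cystm1 and Pfdn1 passed in no comparison. Beside Egfr, Plek lay below WT in Tcl1-/- and in K14-TCL1 (-0.35 and -0.39), while Sec61g did not pass against WT. Beside Erbb2, Mien1 lay above WT in Tcl1-/- and in K14-TCL1 (0.29 and 0.42). Other called neighbours are not reported here.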

How the data were processed

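RNA from epidermal sheets was hybridized to Affymetrix Mouse Genome 430 arrays by the authors. The methods name the 430 2.0 version, whereas the table analysed here holds 22690 probe sets, and genes outside it were not analysed here. The deposited values are linear-scale intensity values, which the submitters' notes credit to RMA (version not given in the sources used here). A second deposited table held the same values. RMA intensities carry no counts, so the number of arrays sets the precision, and background in dim probe sets shrinks their folds.

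Intensities were taken to log2 with no pseudocount. Gene symbols came from the array table and were updated with RefSeq (GRCm38.p6): 21556 probe sets had 1 name. The probe set with the highest mean stood for a gene, and 9731 genes whose highest genotype mean was at least 5 (log2) were tested, with 3470 left out. A mean for each genotype was fitted with limma 3.58.1 (R 4.3.3; 5 residual and 3.32 prior degrees of freedom), and two-sided p-values were adjusted over all tested genes (Benjamini-Hochberg, threshold 0.05). All probe sets were also fitted on their own (15372). The script was tested on simulated data. The methods name 3 animals a genotype, and 2 WT arrays were analysed here. The p-values measure the spread between these arrays, and strain or preparation cannot be told apart from genotype. The members and the gene lists were chosen with earlier results of these data known. Besides the members, up to 4 genes of each list by smallest p could be named. So could the 5 genes most like Epgn and Erbb3, and the 2 neighbours on each side of a member. Lists of cell type markers are given by sums, with a few genes named. Some genes of the lists are counted but their values are not reported here. Promoters came from RefSeq for 7 of 10 members. Alternatives covered the filter, scaling, probe set rule, prior, groups fitted, the criteria of the methods, a replicate block and each array left out. The second deposited table was counted as an alternative too. Figures were drawn with matplotlib 3.10.9.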

Additional observations from a re-analysis of the deposited data

How the results depend on the processing

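Each difference of the 10 genes was computed under 22 alternatives. Of the 660 values, 610 kept their direction and side of the threshold, 38 lost the call, 8 gained it and 4 changed sign. Many of the 610 could not have changed direction. The second deposited table was among the 22 and holds the same values. Alternatives that changed only the filter, prior, genotypes fitted or criteria left the log2 differences as they were. Leaving out a WT array did so too for K14-TCL1 against Tcl1-/-. Epgn and Ereg kept their calls under all 22 in all 3 comparisons, and Areg in K14-TCL1 and Tcl1-/- and in Tcl1-/- and WT. The sign changed only for values that were not called: Egfr in K14-TCL1 against Tcl1-/- (0.0223 with the mean of all probe sets, and -0.0435 to 0.00264 as each array was left out, the highest without K14-TCL1 replicate 3) and Tgfa in K14-TCL1 against WT (-0.0151 with the mean of all probe sets, and -0.00974 to 0.0436 as each array was left out, the lowest without WT replicate 1). With the mean of all probe sets, which adds the dim Erbb3 probe set, Erbb3 was -0.13 in K14-TCL1 against Tcl1-/- and 0.10 in Tcl1-/- against WT and was no longer called (adjusted p = 0.0583 and 0.160).

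Under the criteria of the methods (unadjusted p under 0.001 and their filter of 1.4-fold from a gene's median in at least 20% of arrays), which only 245 genes pass, 3 of the 10 genes were called in K14-TCL1 against Tcl1-/-, 3 in Tcl1-/- against WT and 2 in K14-TCL1 against WT, and 169, 207 and 175 genes in all. For K14-TCL1 and WT the count of members was 3 with no filter on low intensities, 3 with arrays of these genotypes only and 3 with the replicate block. Leaving out each array in turn gave 7 to 7, 6 to 7 and 2 to 5 of the 10 genes in the 3 comparisons, with 2 without either WT array, and 1780 to 2576, 1415 to 2924 and 970 to 2209 genes in all. Without WT replicate 1 and 2, Tcl1-/- against WT gave 1415 and 1572 genes and K14-TCL1 against WT 970 and 1053. Replicate numbers do not pair the arrays (correlation of same-numbered deviations -0.061 to 0.057), and the replicate block gave 7, 6 and 3 of the 10 genes. The cause of these changes was not tested. With 2 WT arrays, results near the threshold against WT rest on few animals. Among them are the calls on Btc, Egfr and Erbb2, and the difference of Lrig1 in K14-TCL1, which just missed a call.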
